A study of Homo sapiens with 44 samples.

Results

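The control cells of the EZH2 knockdown experiment were compared between 2 breast cancer cell lines, SUM149 and MDA-MB-231. The members were the 4 control RNA-seq libraries of that experiment, of 44 samples in the series, chosen by their line and their control siRNA. They are 2 libraries of SUM149 and 2 of MDA-MB-231. Cells of both lines were transfected with a control siRNA at 20 nM and harvested after 48 h, so transfection itself is shared by all 4 libraries. The labels number the libraries of each line as replicates and name no separate animals, donors or culture batches, so the p-values measure the spread between these libraries, which may be technical. One line stands for each group, and a difference between the groups is a difference between these 2 lines, grown and sequenced as they were here.

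Triple-negative breast cancers lack oestrogen receptor, progesterone receptor and amplified ERBB2, and cell lines derived from them range from basal-like cells with keratin filaments and epithelial junctions to mesenchymal-like cells that have lost both. SUM149 was derived from an inflammatory breast cancer with a BRCA1 mutation and is generally described as a basal-like line that keeps epithelial junctions. MDA-MB-231 was derived from metastatic cells in a pleural effusion and is a standard model of mesenchymal-like, invasive cells. NF-kB is a family of dimeric transcription factors held inactive in the cytoplasm by inhibitor proteins until kinases release them, and its targets include chemokines and other cytokines.

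The table held log2-like variance-stabilised values for 27315 gene symbols, which were turned back into normalised counts to show each library. About 17400000 and 25500000 reads lay behind the SUM149 libraries and about 28000000 and 31000000 behind the MDA-MB-231 libraries. Across genes, the replicates correlated at 0.9972 in SUM149 and 0.9986 in MDA-MB-231, against 0.822 to 0.826 between libraries of different lines. The MDA-MB-231 libraries also correlated at 0.849 and 0.851 with control libraries of the same line from a separate knockdown experiment, whereas the SUM149 libraries correlated with those at 0.672 and 0.672. Of 12356 genes tested, 10236 differed between the lines at an adjusted p under 0.05, which is 82.8%. SUM149 was higher for 5104 (41.3%) and lower for 5132 (41.5%). With so many genes called, size separates genes better than the test, so gene groups are counted below by members called with a difference of at least 1 on the log2 scale, which 1140 genes (9.23%) passed upwards in SUM149 and 1341 (10.9%) downwards. All differences are SUM149 minus MDA-MB-231 with their standard error, and folds are ratios of mean normalised counts. In bulk RNA, more cells with a transcript and more transcript per cell cannot be told apart.

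Both lines were at or near zero for the hormone receptors that define triple-negative disease. ESR1, the oestrogen receptor, had normalised counts of 1.6 and 3.4 in SUM149 and 0 and 0 in MDA-MB-231. PGR, the progesterone receptor, was at 0 in all 4 libraries. ERBB2 was expressed in both lines, at 350 and 348 in SUM149 against 1613 and 1793 in MDA-MB-231. It was 4.88-fold higher in MDA-MB-231 (difference -1.73 ± 0.07, adjusted p = 3.4e-11).

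The keratins, the filament proteins by which breast epithelium is typed, divided the lines. Of the 4 luminal keratins tested, 1 was higher in SUM149 by at least 1 and 3 were lower. KRT19 had 26.1 and 39.4 in SUM149 against 4147 and 4155 in MDA-MB-231, a 127-fold difference (-4.3 ± 0.08, adjusted p = 1.8e-14). KRT8 was 3.09-fold and KRT18 2.69-fold higher in MDA-MB-231, whereas KRT7 was 2.91-fold higher in SUM149. Of 8 basal and stratified keratins tested, of 15 listed, 6 were higher in SUM149 by at least 1 and 0 were lower by that much. KRT5, KRT6A and KRT6B reached the level needed for testing only through SUM149, where they are high. This share is therefore partly set by the filter for testing. KRT5, the keratin of basal breast cells, had 1015 and 1027 in SUM149 and 0 and 0 in MDA-MB-231, which is at least 379-fold higher against a floor of 3 reads in each library. KRT6A had 1273 and 1375 in SUM149 against 3.8 and 0.8 in MDA-MB-231, and KRT17 had 248 and 250 in SUM149 against 13.3 and 20.4 in MDA-MB-231. KRT81, a hair-type keratin, had 25946 and 22738 in SUM149 against 465 and 508 in MDA-MB-231 (5.06 ± 0.12, adjusted p = 1.3e-13). KRT6A and KRT81 have close relatives among the keratin genes, and reads may be divided between them. KRT14, the usual partner of KRT5, had 1.6 and 0 in SUM149 and 0 and 0 in MDA-MB-231. The other 2 tested keratins of this list were called lower in SUM149, KRT80 by 2.05-fold (-0.96 ± 0.06) and KRT15 by 3.13-fold (-0.43 ± 0.06). Basal genes beyond the keratins lay on both sides. Of 15 basal and myoepithelial genes tested, 4 were higher in SUM149 by at least 1 and 5 lower, with a median difference of -0.17.

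Neither line had the full set of epithelial junction genes. Of 23 epithelial adhesion genes tested, 4 were higher in SUM149 by at least 1 and 7 lower, with a median difference of -0.12 against -0.004 over all genes tested. CDH1, which encodes E-cadherin, had 116 and 102 in SUM149 against 24.5 and 23.8 in MDA-MB-231 (0.64 ± 0.06, adjusted p = 3.1e-07), 4.51-fold higher in SUM149. EPCAM had 1594 and 1460 in SUM149 against 1410 and 1297 in MDA-MB-231 and was not called (adjusted p = 0.052). CLDN4, a tight junction claudin, had 21.3 and 5.6 in SUM149 against 2593 and 2625 in MDA-MB-231, 194-fold higher in MDA-MB-231 (-3.95 ± 0.08, adjusted p = 3.7e-14). CLDN7 went the other way, with 412 and 389 in SUM149 against 87.6 and 91.7 in MDA-MB-231. SPINT1, an inhibitor of epithelial surface proteases, was 9.16-fold higher in SUM149, and its relative SPINT2 was 5.28-fold higher in MDA-MB-231. Members of the same families therefore lay on opposite sides.

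Desmosomes and hemidesmosomes, the plaques that anchor keratin filaments, were mostly lower in SUM149. Of 10 desmosomal genes tested, 1 was higher by at least 1 and 4 lower, with a median difference of -0.69. DSP, which encodes desmoplakin, had 301 and 234 in SUM149 against 8533 and 7980 in MDA-MB-231 (-4.08 ± 0.07, adjusted p = 5.9e-15). PPL, which encodes periplakin, was 39.7-fold and JUP, which encodes plakoglobin, 6.26-fold higher in MDA-MB-231. PKP1, which encodes plakophilin 1, was the exception, with 848 and 805 in SUM149 against 0 and 2.5 in MDA-MB-231. ITGB4, the integrin of hemidesmosomes, had 18 and 16.8 in SUM149 against 3525 and 3703 in MDA-MB-231, and COL17A1, a hemidesmosomal collagen, was 20.1-fold higher in MDA-MB-231. LAMA3, a chain of the laminin that these plaques bind, was 8.31-fold higher in SUM149.

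**Figure D1:**
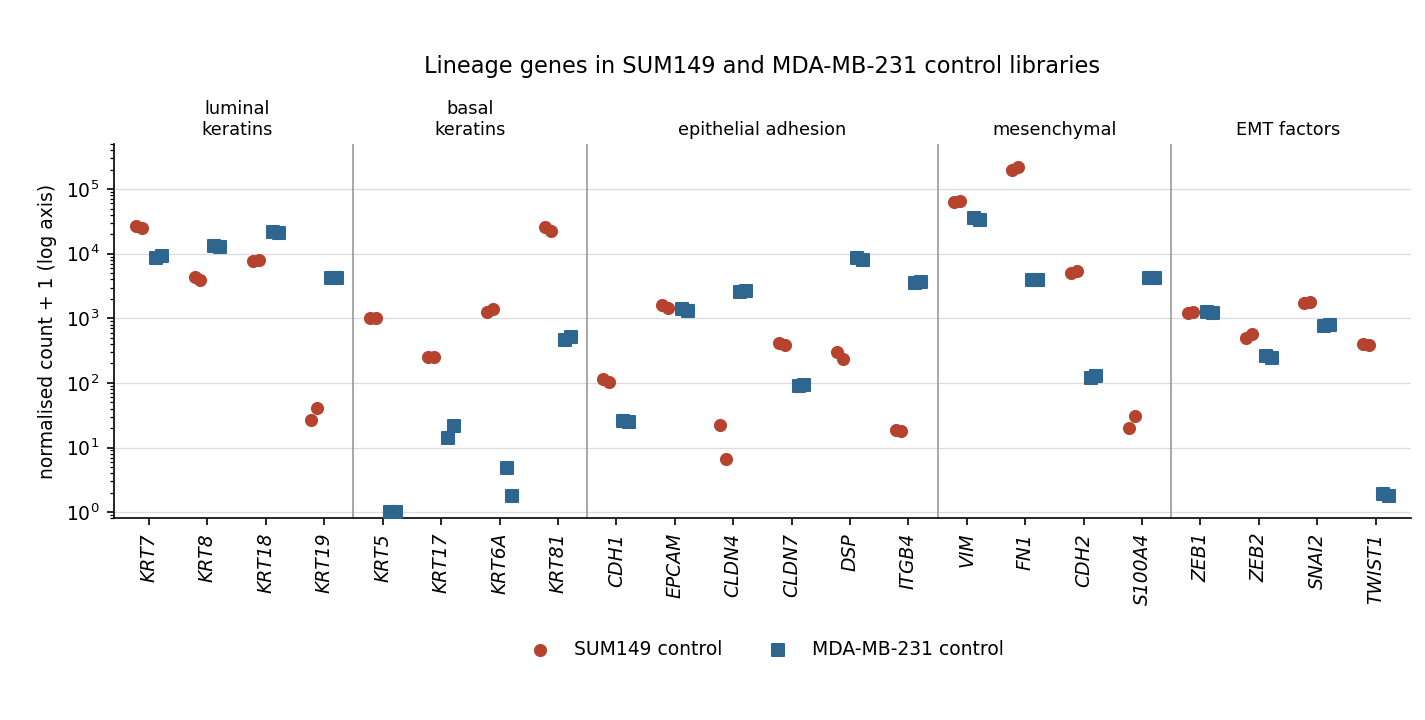
Normalised count plus 1 on a log axis for lineage genes, with 1 point per control library (SUM149 circles, MDA-MB-231 squares). SUM149 lies above MDA-MB-231 for KRT5, FN1, CDH2 and TWIST1, below it for KRT19, CLDN4, DSP, ITGB4 and S100A4, and level with it for ZEB1.

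Both lines expressed mesenchymal genes, and different ones were higher in each. Of 26 tested, 6 were higher in SUM149 by at least 1 and 11 lower, with a median difference of -0.76. VIM, FN1 and CDH2 were nonetheless higher in the libraries labelled SUM149, unlike the usual description of that line. The identity of the lines by genotype was not tested, and the name SUM149 stands here for the libraries so labelled. VIM, which encodes the filament protein vimentin, had 62193 and 64843 in SUM149 against 35175 and 33519 in MDA-MB-231 (0.88 ± 0.07, adjusted p = 4.3e-08). FN1, which encodes fibronectin, had 200019 and 218257 in SUM149 against 3964 and 3936 in MDA-MB-231, 52.9-fold higher in SUM149 (5.63 ± 0.07, adjusted p = 2.4e-16). CDH2, which encodes N-cadherin, had 5064 and 5311 in SUM149 against 120 and 128 in MDA-MB-231, 41.8-fold higher. These 3 genes were called, but so were 82.8% of all genes tested, so the call does not set them apart. The values of the 2 lines did not overlap for them, and the share of all genes without overlap was not counted. S100A4, a calcium-binding protein of motile cells, was 170-fold, NT5E, an ectoenzyme that makes adenosine, 33.3-fold, and the receptor kinase AXL 4.34-fold higher in MDA-MB-231.

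Among the transcription factors that drive epithelial-mesenchymal transition (EMT), 2 of 9 tested (22.2%) were higher in SUM149 by at least 1 and 0 lower. Over all genes tested these shares were 9.23% and 10.9%, so with 9 genes the counts do not stand apart. The 2 were TWIST1 and TCF4, which reached the level needed for testing only through SUM149. TWIST1 had 396 and 389 in SUM149 against 0.9 and 0.8 in MDA-MB-231 (2.09 ± 0.06, adjusted p = 6e-13). TCF4 had 464 and 534 in SUM149 against 6.6 and 0.8 in MDA-MB-231. Among changes under 1 on the log2 scale, SNAI2 was 2.25-fold, ZEB2 2.11-fold and SNAI1 4.43-fold higher in SUM149. FOXQ1 had 9.8 and 30.4 in SUM149 against 173 and 158 in MDA-MB-231, 8.22-fold higher in MDA-MB-231 (-0.98 ± 0.09, adjusted p = 1e-07), and FOXC1 was 1.22-fold higher in MDA-MB-231. ZEB1, a repressor of CDH1, had 1218 and 1260 in SUM149 against 1261 and 1198 in MDA-MB-231, values that overlap, and was not called (0.01 ± 0.05, adjusted p = 0.87). Of factors that maintain epithelial genes, TFAP2C was 10.1-fold and the splicing regulator ESRP2 2.91-fold higher in SUM149, and EHF had 40.9 and 34.9 in SUM149 against 2227 and 2226 in MDA-MB-231. GRHL2 had 13.1 and 40.4 in SUM149 against 10.4 and 5.9 in MDA-MB-231 and lay below the level needed for testing.

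The chemokine gene CXCL1 had the largest rise in SUM149 of any protein-coding gene tested whose symbol was matched to RefSeq. Of 23 chemokine and cytokine genes tested, of 35 listed, 11 were higher in SUM149 by at least 1 and 4 lower, with a median difference of 0.83. Some, such as CXCL1, CXCL3 and CCL20, reached the level needed for testing only through SUM149. Others, such as TNFSF10 and CCL28, reached it only through MDA-MB-231. These shares are therefore partly set by the filter for testing. Several of the chemokines that attract neutrophils lie together on chromosome 4, and the bases around the kB consensus, the DNA motif that NF-kB dimers bind, are shown for 5 of them because the sequence is nearly shared. Capitals mark the bases covered by the consensus, which was searched on both strands in the 250 bases before each start, and the 11 letters GGGAATTTCCC were the same in all 5. The sequences are RefSeq promoters of GRCh38.p14, read 5′ to 3′ on the gene's strand.
CXCL1 (chr4:73869305-73869334, plus strand): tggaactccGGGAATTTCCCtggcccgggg
CXCL2 (chr4:74099253-74099282, minus strand): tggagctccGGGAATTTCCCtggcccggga
CXCL3 (chr4:74038748-74038777, minus strand): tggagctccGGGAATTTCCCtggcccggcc
CXCL5 (chr4:73998748-73998777, minus strand): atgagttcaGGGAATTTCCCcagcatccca
CXCL6 (chr4:73836579-73836608, plus strand): ctgagttcaGGGAATTTCCCcagcatccca
The match starts 79 bases before the start of CXCL1 and of CXCL3, 78 before CXCL2, 91 before CXCL5 and 90 before CXCL6. The 2 ways to place the consensus on these letters, 1 per strand, overlap. The consensus occurred in 1380 of 27305 RefSeq promoters (5.05%) and in 11 of the 26 promoters held for the cytokine list (42.3%). Of 10 list members higher in SUM149 by at least 1 with a promoter held, 6 had it. All 5 promoters shown enter the share of the cytokine list as separate members although their sequence is nearly shared. Of them, only CXCL1, CXCL2 and CXCL3 enter the share of the 10 members higher in SUM149. The form searched was GGGRNWYYCC, where R is A or G, N any base, W A or T, and Y C or T. The promoter of CXCL8 held no match to this form in this window, and looser forms of the motif were not searched. These matches describe letters and not binding.

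CXCL1 had 40904 and 42434 in SUM149 against 27.6 and 27.9 in MDA-MB-231, 1501-fold higher in SUM149 (7.6 ± 0.05, adjusted p = 1.9e-18). CXCL3 had 4548 and 4879 in SUM149 against 8.6 and 15.3 in MDA-MB-231, and CXCL2 had 2003 and 2164 in SUM149 against 54.2 and 42.4 in MDA-MB-231. CXCL5 had only 21.3 and 29.3 in SUM149 and CXCL6 9.8 and 10.1, and both were at 0 in MDA-MB-231 and below the level needed for testing. The 5 genes with the same 11 letters thus differed widely in how far the lines were apart. CXCL8, which encodes the neutrophil chemokine interleukin 8, had 15581 and 16485 in SUM149 against 98.7 and 88.2 in MDA-MB-231 (5.72 ± 0.06, adjusted p = 5.9e-17).

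CSF3, the granulocyte growth factor, had 7392 and 7930 in SUM149 against 5.7 and 9.5 in MDA-MB-231, 1008-fold higher in SUM149 (5.5 ± 0.07, adjusted p = 2.2e-16). CCL20 had 3540 and 3797 in SUM149 against 1 and 1.7 in MDA-MB-231. Of the interleukin 1 genes, IL1B had 3350 and 4141 in SUM149 against 2.8 and 1.7 in MDA-MB-231. IL1A had 2222 and 2495 in SUM149 against 47.4 and 61.1 in MDA-MB-231. IL6 differed less, with 2453 and 2631 in SUM149 against 580 and 636 in MDA-MB-231. Not every cytokine followed. CSF1, the macrophage growth factor, had 517 and 536 in SUM149 against 5751 and 6099 in MDA-MB-231 (-2.99 ± 0.06, adjusted p = 1.9e-14). TNFSF10, which encodes the death ligand TRAIL, had 4.9 and 1.2 in SUM149 against 582 and 591 in MDA-MB-231, and CCL28 had 0 and 0 in SUM149 against 283 and 275 in MDA-MB-231.

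The NF-kB genes themselves were balanced around 0. Of 19 tested, 5 were higher in SUM149 by at least 1 and 3 lower, with a median difference of 0.01. RELA, the activating subunit of the classical dimer, had 2176 and 2316 in SUM149 against 2192 and 2252 in MDA-MB-231, values that overlap. It was not called (0.01 ± 0.06, adjusted p = 0.83), and its sign turned under quantile normalisation (-0.02). NFKB1, the partner subunit, had 2923 and 2960 in SUM149 against 3059 and 2995 in MDA-MB-231 and was not called (adjusted p = 0.5). REL, another activating subunit, had 915 and 918 in SUM149 against 218 and 201 in MDA-MB-231, 4.37-fold higher. IKBKB, the kinase that marks inhibitors for destruction in the classical pathway, was 2.6-fold higher in SUM149, and MAP3K14, the kinase of the alternative pathway, had 933 and 925 in SUM149 against 3787 and 4181 in MDA-MB-231. The inhibitors NFKBIA and TNFAIP3, which are themselves known NF-kB targets, were 2.89-fold and 3.19-fold higher in SUM149, and the inhibitor NFKBIE 2.54-fold higher in MDA-MB-231. Transcript levels say nothing of where the subunits are or whether they bind DNA.

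**Figure D2:**
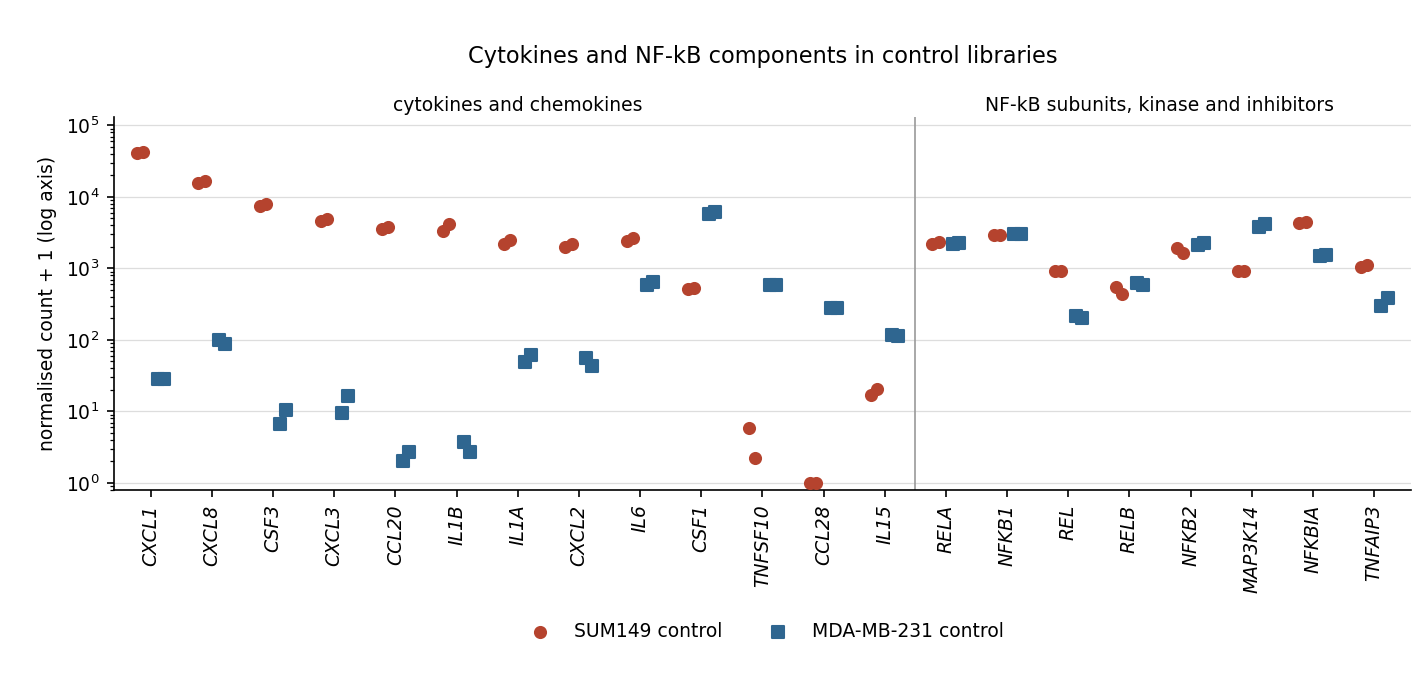
Normalised count plus 1 on a log axis for cytokines and NF-kB genes, with 1 point per control library (SUM149 circles, MDA-MB-231 squares). CXCL1, CXCL8, CSF3 and CXCL3 lie far above MDA-MB-231 in SUM149, and RELA and NFKB1 lie level in both lines.

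Interferon-stimulated genes and antigen presentation genes were lower in SUM149. Genes induced by type I interferon restrict viruses. Of 34 tested, 2 were higher in SUM149 by at least 1 and 18 lower, with a median difference of -1.08. IFIT1, an RNA sensor, had 6.6 and 2.2 in SUM149 against 1881 and 1926 in MDA-MB-231 (-3.72 ± 0.07, adjusted p = 2.1e-14). IFIT3 was 48.3-fold, IFI44 68.5-fold, MX1 49.1-fold and the RNA helicase DDX58 13.1-fold higher in MDA-MB-231. BST2, which tethers virus particles, was 2.49-fold and IFITM2, an entry inhibitor, 3.49-fold higher in SUM149. Of 21 antigen presentation genes tested, 1 was higher in SUM149 by at least 1 and 9 lower, with a median difference of -0.97. HLA-B had 317 and 317 in SUM149 against 6436 and 6739 in MDA-MB-231. HLA genes vary greatly between people, and the part of alleles unlike the reference genome in these counts was not tested. CD74, the class II invariant chain, had 1.8 and 1.3 in SUM149 against 2268 and 2369 in MDA-MB-231 (-4.07 ± 0.06, adjusted p = 1.3e-15). B2M, the shared light chain of class I, was only 1.29-fold higher in MDA-MB-231.

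ERBB receptor ligands were divided between the lines. Of 10 genes tested in the family, 3 were higher in SUM149 by at least 1 and 5 lower. EGFR had 6541 and 6830 in SUM149 against 5516 and 5265 in MDA-MB-231, 1.24-fold higher. Its ligand AREG had 4094 and 2638 in SUM149 against 51.3 and 63.6 in MDA-MB-231. The separate MDA-MB-231 control libraries, processed differently, held 2615 and 2451 AREG counts of 24023494 and 23191375 in all. So low a level of AREG was thus not seen in MDA-MB-231 in that experiment. The AREG gap between the lines is reported for the present experiment only, and why AREG differed between the experiments was not tested. EREG, another ligand, had 4600 and 4574 in SUM149 against 238 and 226 in MDA-MB-231. HBEGF and TGFA, ligands of the same receptor, were 13.9-fold and 6.1-fold higher in MDA-MB-231. NRG1, a ligand of ERBB3 and ERBB4, was 3.14-fold higher in MDA-MB-231. Of 27 other growth factors and receptors, 2 (7.41%) were higher in SUM149 by at least 1 and 9 (33.3%) lower. Over all genes tested the shares were 9.23% and 10.9%. FGF2 had 650 and 620 in SUM149 and 0 and 0 in MDA-MB-231, at least 235-fold higher in SUM149. IGF1R was 4.75-fold higher in SUM149, and INSR, the insulin receptor, 39.7-fold and IGFBP3, a binding protein of insulin-like growth factors, 61.3-fold higher in MDA-MB-231. MERTK, a receptor kinase related to AXL, had 1.6 and 0 in SUM149 against 570 and 543 in MDA-MB-231.

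In the TGF-beta and BMP pathway, the secreted members were the most unlike. Of 26 tested, 6 were higher in SUM149 by at least 1 and 4 lower, with a median difference of 0.07. GREM1, a secreted BMP antagonist, had 16455 and 15582 in SUM149 against 0.9 and 2.6 in MDA-MB-231 (6.71 ± 0.06, adjusted p = 5.9e-17). INHBA, the activin A subunit, had 10798 and 10949 in SUM149 against 89 and 82.3 in MDA-MB-231, 127-fold higher in SUM149. FST, the activin antagonist follistatin, was 68.1-fold higher in MDA-MB-231. BMP2 was 84.9-fold higher in SUM149 and BMP4 34.3-fold higher in MDA-MB-231. ID3, a target of BMP signalling, was 5.26-fold higher in SUM149. In the WNT pathway, 5 of 24 tested genes were higher in SUM149 by at least 1 and 5 lower. WNT5A, a ligand of non-canonical signalling, had 7436 and 6977 in SUM149 against 1.9 and 2.5 in MDA-MB-231 (5.57 ± 0.06, adjusted p = 6.9e-17). Its known receptors ROR1 and ROR2 exchanged places, since ROR2 had 521 and 587 in SUM149 against 0.8 and 0 in MDA-MB-231, and ROR1 had 33.3 and 41.7 in SUM149 against 2259 and 2116 in MDA-MB-231. SFRP1, a secreted WNT inhibitor, was 244-fold higher in SUM149.

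Matrix genes were more often higher in SUM149, and protease genes more often lower. Of 31 collagens and matrix glycoproteins tested, 12 were higher by at least 1 and 5 lower, with a median difference of 0.78. COL16A1 was 39.9-fold, TNC, which encodes tenascin C, 10.8-fold and COL6A3 10.4-fold higher in SUM149. DCN, which encodes decorin, had 2024 and 2201 in SUM149 against 1 and 3.4 in MDA-MB-231. COL18A1 was 71-fold and COL13A1 33.3-fold higher in MDA-MB-231. None of 13 integrins tested was higher in SUM149 by at least 1 and 4 were lower, ITGA3 by 7.98-fold besides ITGB4. Of 26 proteases and inhibitors, 5 were higher in SUM149 by at least 1 and 9 lower. MMP9, which cleaves basement membrane collagen, had 780 and 689 in SUM149 against 2.8 and 3.4 in MDA-MB-231, and MMP14, the membrane-bound collagenase, had 556 and 643 in SUM149 against 8358 and 8956 in MDA-MB-231. TIMP3, an inhibitor of these enzymes, had 13.1 and 13.5 in SUM149 against 5915 and 5775 in MDA-MB-231 (-5.01 ± 0.07, adjusted p = 5.3e-16), and TIMP2 was 17.6-fold higher in MDA-MB-231.

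Tumour suppressor genes lay on both sides, and some were undetected in both lines. CDKN2A, which encodes inhibitors of the cyclin D kinases and of MDM2, CDKN2B beside it and their neighbour MTAP were at 0 in all 4 libraries. STK11, the kinase that activates AMPK, had 0 and 2.3 in SUM149 against 1541 and 1593 in MDA-MB-231. NF2, which encodes merlin, had 4471 and 4858 in SUM149 against 451 and 437 in MDA-MB-231, 10.5-fold higher in SUM149. BRCA1 had 1381 and 1349 in SUM149 against 2202 and 2156 in MDA-MB-231, and BRCA2 was 3.8-fold higher in SUM149. Over the list, 2 of 22 tested (9.09%) were higher by at least 1 and 4 (18.2%) lower, against 9.23% and 10.9% of all genes tested.

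Of 23 Polycomb genes tested, which include the knockdown target of the experiment, 2 (8.7%) were higher in SUM149 by at least 1 and 1 (4.35%) lower. Over all genes tested these shares were 9.23% and 10.9%. Without the size rule, 6 were called higher and 14 lower, where 41.3% and 41.5% of all genes tested were. The median difference was -0.28. EZH2, the methyltransferase of Polycomb repressive complex 2, had 2563 and 2746 in SUM149 against 3022 and 3020 in MDA-MB-231 (-0.17 ± 0.07, adjusted p = 0.044). Its partners SUZ12 and EED differed by -0.28 ± 0.07 and 0.16 ± 0.06. The 2 higher by at least 1 were RBBP4 (2.68-fold) and AEBP2 (3.39-fold), and the 1 lower was PHF1 (2.64-fold).

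Genes of lipid synthesis and of the cell cycle were more often higher in SUM149, and other metabolic genes lay on both sides. Of 21 genes of cholesterol and fatty acid synthesis tested, 9 were higher in SUM149 by at least 1 and 0 lower by that much, with a median difference of 0.83. SCD, a fatty acid desaturase, had 11750 and 13135 in SUM149 against 1913 and 1738 in MDA-MB-231, and SQLE, an enzyme of the sterol pathway, was 5.55-fold higher. SREBF2, the transcription factor that drives this pathway, was 2.35-fold higher in SUM149. Of 23 genes of amino acid and redox metabolism, 4 were higher in SUM149 by at least 1 and 6 lower. PHGDH, the first enzyme of serine synthesis, had 4233 and 4346 in SUM149 against 62.6 and 53.4 in MDA-MB-231 (4.12 ± 0.08, adjusted p = 1.1e-14). GPX3 had 3.3 and 0 in SUM149 against 2919 and 2916 in MDA-MB-231, and AKR1C3 was 132-fold higher in MDA-MB-231. Of 24 genes of glycolysis and the hypoxia response, 1 (4.17%) was higher in SUM149 by at least 1 and 4 (16.7%) lower. Over all genes tested the shares were 9.23% and 10.9%. SLC2A1, the main glucose importer, was 5.23-fold higher in MDA-MB-231, and LDHB, a lactate dehydrogenase subunit, 3.69-fold higher in SUM149. Of 29 cell cycle genes tested, 7 were higher in SUM149 by at least 1 and 0 lower by that much. RRM2, a subunit of ribonucleotide reductase, was 3-fold higher in SUM149, and MKI67, the proliferation marker, had 8693 and 9126 in SUM149 against 9833 and 9462 in MDA-MB-231 and was not called (adjusted p = 0.074).

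The tested genes of squamous epithelium and the tested HOX genes, which set position in the embryo, were mostly higher in SUM149. Of 13 squamous and secretory genes tested, of 36 listed, 10 were higher by at least 1 and 0 lower by that much, and 13 listed genes were at 0 in all 4 libraries. SERPINB5, which encodes maspin, had 1819 and 2016 in SUM149 against 24.6 and 14.4 in MDA-MB-231, and CSTA, a protease inhibitor of keratinocytes, had 708 and 704 in SUM149 against 0 and 3.4 in MDA-MB-231. Of 13 HOX genes tested, of 36 listed, 9 were higher by at least 1 and 2 lower. HOXC10 had 614 and 652 in SUM149 and HOXA10 341 and 358, and both were at 0 in MDA-MB-231. HOXB9 had 0 and 1.1 in SUM149 against 287 and 317 in MDA-MB-231. Genes at or near 0 in MDA-MB-231, such as HOXC10, HOXA10 and CSTA, passed the filter for testing only through SUM149, where they are high. The shares of tested members in these lists are therefore partly set by that filter.

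**Figure D3:**
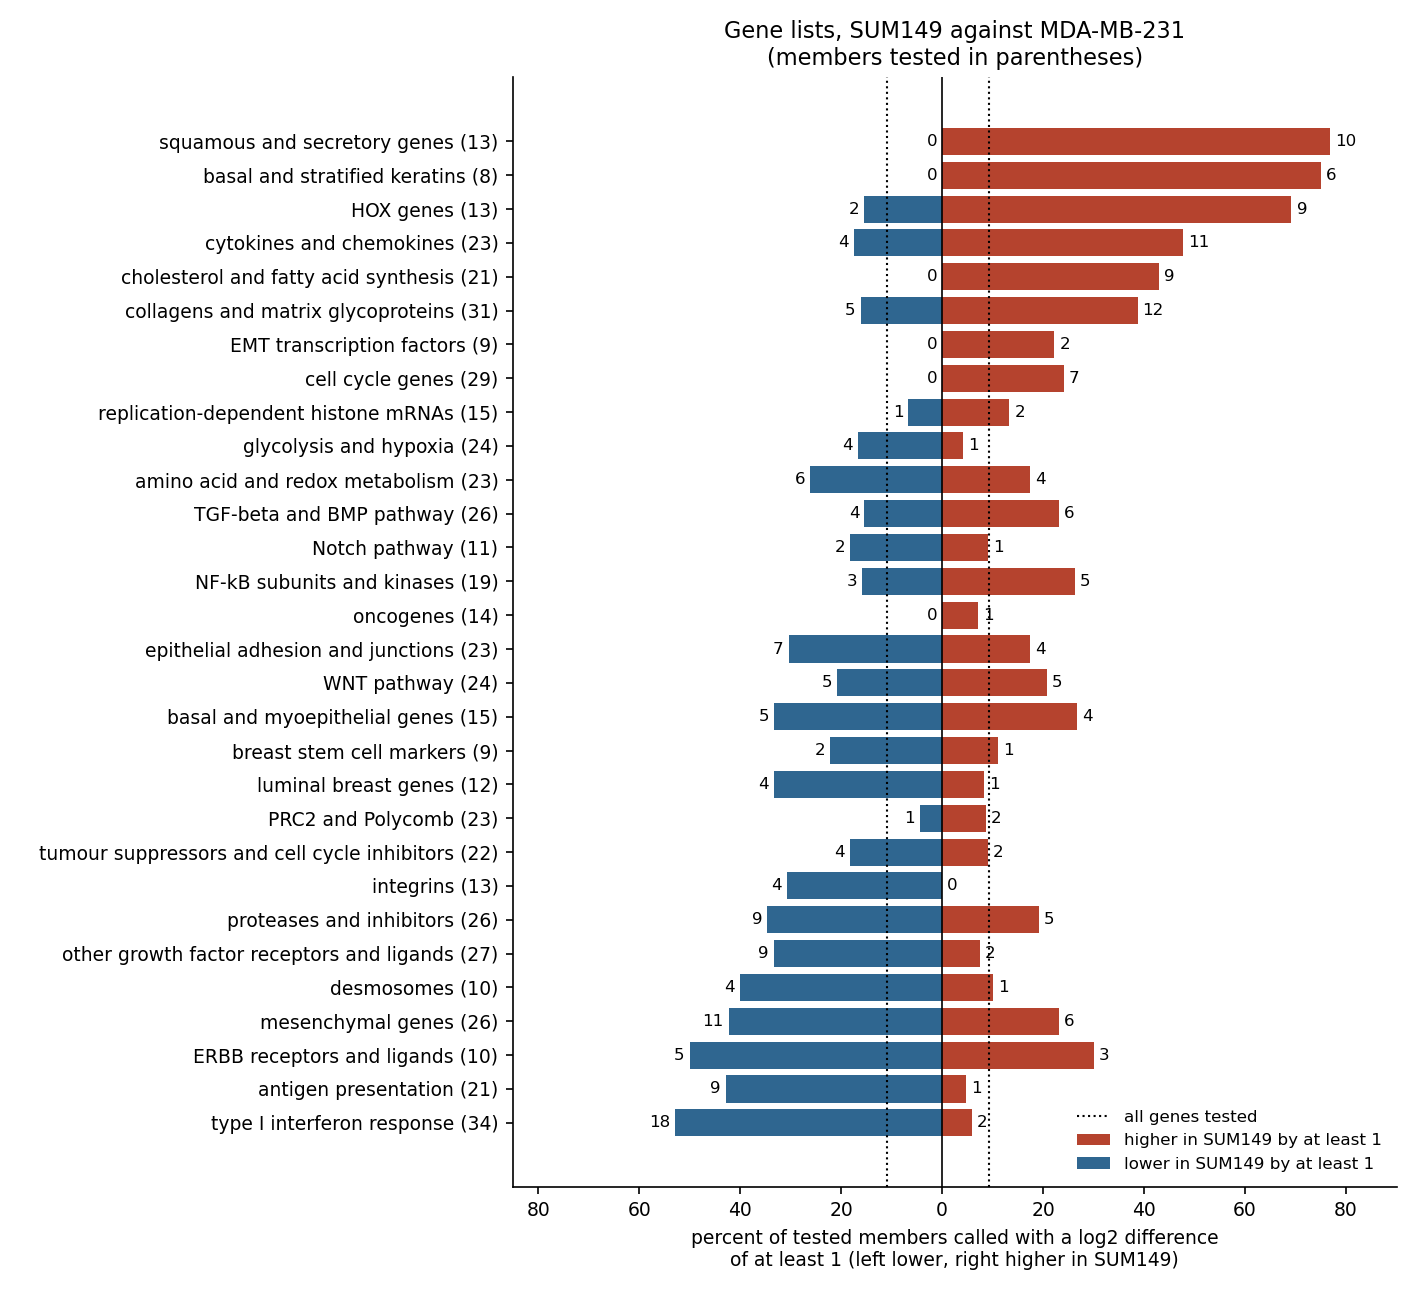
Percent of the tested members of each list with at least 8 of them, reference genes left out, that were called with a log2 difference of at least 1, to the right where SUM149 was higher and to the left where it was lower, with member counts at the bars. Dotted lines mark the 9.23% and 10.9% of all genes tested. Among the lists drawn, squamous genes, basal keratins, HOX genes and cytokines extend furthest to the right, and interferon response genes furthest to the left. Genes absent from 1 line were tested only through the other, so the bars are partly set by the filter for testing.

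Markers of cells that a culture of either line should not hold were mostly absent. Among 10 haematopoietic markers, CD3E, SPI1 and HBB were at 0 in all 4 libraries and PTPRC had at most 2.5. The summed level of the list was 2103 and 2515 in SUM149 and 2112 and 2432 in MDA-MB-231, nearly all of it CD68. The endothelial list summed to 3.3 and 4.5 in SUM149 and 1033 and 973 in MDA-MB-231, where ESAM gave 895 and 845 while PECAM1 had 4.7 and 11 and CDH5 0 and 0.8. The fibroblast list summed to 2861 and 2995 in SUM149 and 337 and 352 in MDA-MB-231. In SUM149 it was mostly DCN and FAP, while COL1A2, COL3A1, LUM and PDGFRA were at 0 in both SUM149 libraries. The melanocyte list summed to 282 and 281 in SUM149 and 927 and 825 in MDA-MB-231, almost all of it MITF, with MLANA and TYR at 0.

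A run of histone genes on chromosome 6 was near 0 in MDA-MB-231 and high in SUM149. Replication-dependent histone genes lie there in a cluster, are copied in S phase and end in a stem-loop in place of a polyA tail. Among protein-coding genes whose symbol could be placed on the chromosome, a run of 10 had a normalised count of at most 1.9 in either MDA-MB-231 library. Its members were HIST1H4D, HIST1H3D, HIST1H2AD, HIST1H4E, HIST1H2AE, HIST1H3E, HIST1H1D, HIST1H3F, HIST1H2BH and HIST1H3G. They are neighbours once genes averaging under 100 in both lines are passed over. Some histone symbols could not be placed, so the run may hold more genes. Among these was HIST1H2BI, with 7000 and 7284 in SUM149 against 0 and 0 in MDA-MB-231. HIST1H2AE had 10860 and 11180 in SUM149 against 0 and 1.7 in MDA-MB-231, and HIST1H4D at the start of the run had 9507 and 9017 in SUM149 against 1.9 and 1.7 in MDA-MB-231. The nearest placed genes outside the run were detected in both lines. HIST1H2BD before it had 10573 and 8759 in SUM149 against 9076 and 8723 in MDA-MB-231. HIST1H4H after it had 8689 and 9454 in SUM149 against 4721 and 4925 in MDA-MB-231. A second stretch held HIST1H2AL, HIST1H1B, HIST1H3I and HIST1H4L, of which HIST1H1B had 26441 and 26030 in SUM149 against 0 and 3.4 in MDA-MB-231 (7.46 ± 0.07, adjusted p = 6.3e-17). The next gene, HIST1H3J, was reversed, with 1.6 and 13.5 in SUM149 against 2245 and 2208 in MDA-MB-231. Histone genes of one type are nearly identical in sequence, so reads may be moved between copies. The labels give the RNA as polyA RNA, yet RMRP, which has no polyA tail, had 141453 and 104992 in SUM149 and 98505 and 107060 in MDA-MB-231. In the separate MDA-MB-231 experiment, RMRP was at 0 and 9 of 49 matched histone genes of this cluster reached 1 CPM (counts scaled to equal library totals) in both control libraries, so that experiment bears little on these genes. Whether DNA is lost from this cluster in MDA-MB-231 was not tested.

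**Figure D4:**
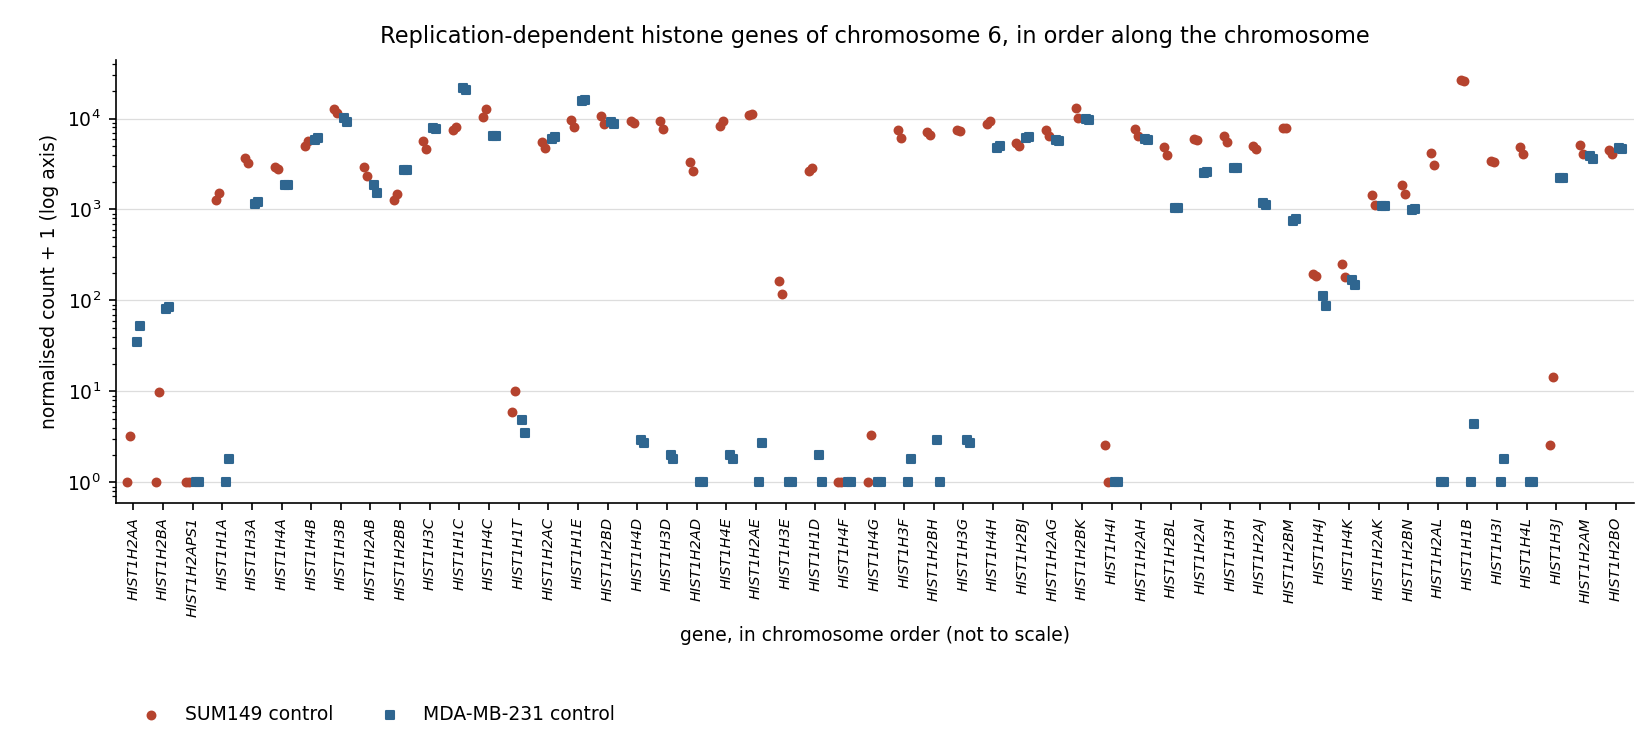
Normalised count plus 1 on a log axis for histone genes of the chromosome 6 cluster, with 1 point per control library (SUM149 circles, MDA-MB-231 squares). Genes are in chromosome order, and those whose symbol could not be placed are left out. MDA-MB-231 drops to 3.4 or less at HIST1H1A, over the run from HIST1H4D to HIST1H3G and over HIST1H2AL to HIST1H4L, and SUM149 drops at HIST1H3J.

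A small set of genes was detected in only 1 line by the strictest rule, at the table's lowest value in both libraries of 1 line and at least 3 log2 units above it in both of the other. There were 16 such genes for SUM149 and 8 for MDA-MB-231. Besides histones, those of SUM149 included SLC6A15, an amino acid transporter with 3451 and 3541, MME, the membrane peptidase CD10 with 1708 and 1891, and KLHL9, an adaptor of a ubiquitin ligase with 1988 and 2188, all at 0 and 0 in MDA-MB-231. Those of MDA-MB-231 included LAYN, a hyaluronan receptor, with 0 and 0 in SUM149 against 1331 and 1375 in MDA-MB-231, and CCRL2, an atypical chemokine receptor, with 0 and 0 in SUM149 against 1130 and 1176 in MDA-MB-231. The separate MDA-MB-231 control libraries, which the rule did not use, gave a check of the MDA-MB-231 values only. They hold no SUM149 cells, so presence or absence in SUM149 was not checked. Histones were left out, since that experiment bears little on them. The other 11 SUM149 genes were all matched there, of which 10 lay under 1 CPM in both libraries, and all 8 MDA-MB-231 genes were at 1 or more.

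Over protein-coding genes whose symbol was matched to RefSeq, the 12 largest rises in SUM149 were CXCL1, CXCL8, GREM1, FN1, BEX1, ANPEP and 6 histone genes. HIST1H2BI, whose symbol was not matched, was left out of this ranking although its difference was 5.74 ± 0.07. BEX1, a gene expressed mainly in brain, had 9374 and 9891 in SUM149 against 1 and 0.8 in MDA-MB-231, and ANPEP, the membrane aminopeptidase CD13, had 7026 and 8073 in SUM149 against 0 and 1.7 in MDA-MB-231. The 12 largest falls included ANKRD1, FLNC, MYEOV, ANXA6, ADAMTS12, ADGRF5, FLG, ACSL5, TIMP3, FAT4 and ADGRF1. ANKRD1, a known target of the YAP1 coactivator, had 85 and 101 in SUM149 against 27616 and 25989 in MDA-MB-231 (-6.46 ± 0.07, adjusted p = 6.5e-17). FLNC, which encodes filamin C, was 219-fold and ANXA6, an annexin, 615-fold higher in MDA-MB-231. CTGF, another YAP1 target, was 14.3-fold higher in MDA-MB-231, while YAP1 itself differed by -0.78 ± 0.06.

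The same contrast was then read in the 4 libraries of cells given EZH2 siRNA, which the control contrast does not use although both come from 1 fit and 1 experiment. EZH2 itself had 442 and 517 in SUM149 and 368 and 298 in MDA-MB-231 under its siRNA. There, 1134 genes (9.18%) were higher in SUM149 by at least 1 and 1330 (10.8%) lower. Of the control calls, 948 were shared upwards, which is 83.2% of the control calls and 83.6% of the siEZH2 calls, and 1098 downwards, which is 81.9% and 82.6%. CXCL1, FN1, KRT5 and HLA-B were all on the same side under siEZH2. PLAT, which encodes tissue plasminogen activator, was not, with 7208 and 6750 in SUM149 against 10779 and 11831 in MDA-MB-231 under siEZH2 and 6001 and 6232 in SUM149 against 2833 and 2785 in MDA-MB-231 under control siRNA.

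**Figure D5:**
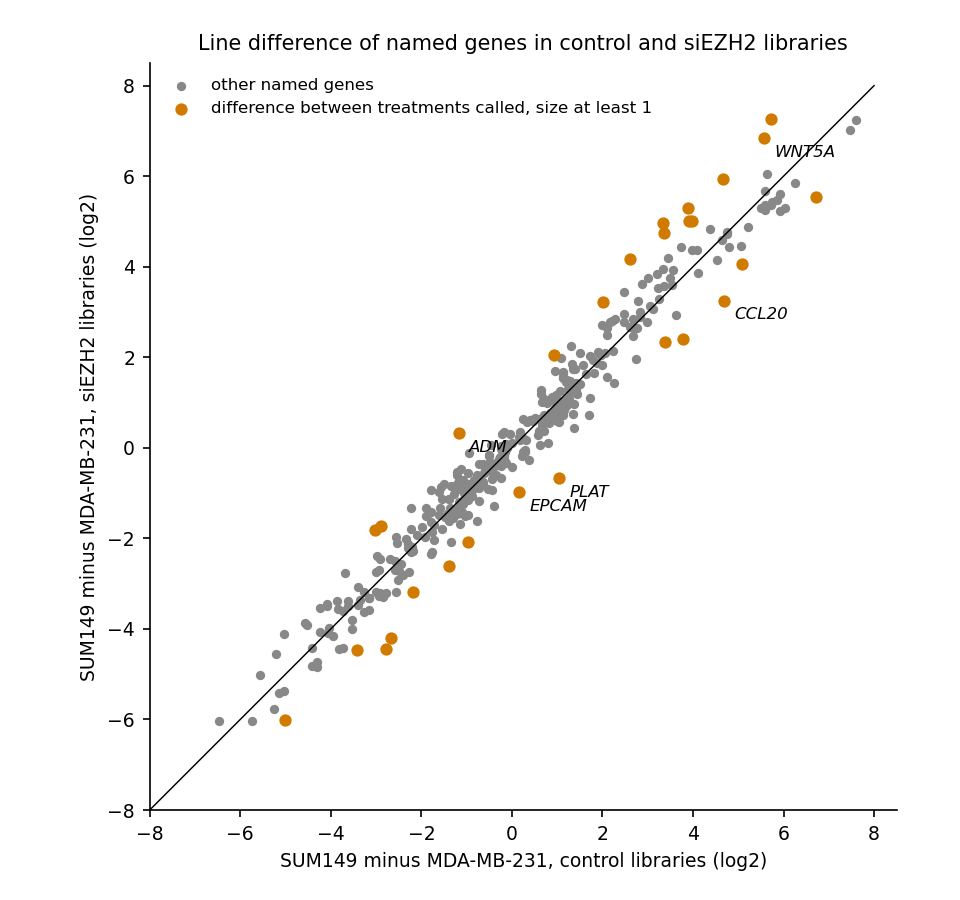
SUM149 minus MDA-MB-231 difference (log2) of named genes in control libraries (horizontal) and in siEZH2 libraries (vertical), with the line of equality. Orange points are genes whose line difference changed between treatments by at least 1 with an adjusted p under 0.05, among them WNT5A above the line and PLAT, EPCAM and CCL20 below it.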

How the data were processed

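The authors trimmed and aligned reads to hg19 (cutadapt, STAR 2.5.2b) and estimated expression with Salmon and DESeq2, per the submitters' processing notes. The deposited table holds log2-like variance-stabilised values for 8 libraries, with a lowest value of 7.12. These were tested with limma 3.58.1 in R 4.3.3 (lmFit and eBayes with a variance trend, all 8 libraries in 4 groups, Benjamini-Hochberg adjustment), over genes that exceeded this floor by 1 or more in 2 or more libraries. On simulated data the fit was checked for recovery of known changes. Normalised counts were obtained by inverting the stabilising formula. They carry the authors' gene-length correction, so reads recovered from them are approximate and levels are not compared between genes. Floors take 3 reads in each library and cover counting error only. The separate MDA-MB-231 experiment was deposited as counts per gene (HISAT2 2.0.5, featureCounts 1.5.0-p3, hg19, per the submitters' processing notes), with 24023494 and 23191375 counts in its controls, and was used as CPM. Symbols were matched to RefSeq for 26200 of 27315 rows, 1293 through older symbols. Gene order and chromosomes come from GRCh38.p14, and no hg19 coordinate is given.

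Members and the 41 gene lists were chosen with earlier results of these data known. Named are 357 genes. They are set marker genes of each list, and up to 5 called rises and 5 called falls per list. They also include the 12 largest rises and 12 largest falls over protein-coding genes matched to RefSeq. The rest are up to 8 genes per line detected in that line alone. Another 44 genes, and list members quoted beside them, were chosen after their values were seen. Mitochondrial mRNAs were not analysed here. Some named genes are not reported here or drawn singly, and list counts include them. Same-numbered libraries of the 4 groups did not deviate together (correlation -0.00497), so the numbers were not used as pairs. Figures were drawn with matplotlib 3.10.9. Alternatives were other filters, eBayes settings, scalings, a replicate block, the 4 control libraries alone, each control library left out, and edgeR 4.0.16 and DESeq2 1.42.0 on recovered counts.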

Additional observations from a re-analysis of the deposited data

Results flagged for a closer look

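For 28 of the named genes reported here, the SUM149 minus MDA-MB-231 difference under EZH2 siRNA differed from that under control siRNA, by a test of the interaction in the limma fit (adjusted p under 0.05) and by at least 1 on the log2 scale. Over all genes tested, the interaction was called for 2662 genes, 85 of them by at least 1. Values are the line difference under siEZH2 minus that in controls.

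The gap between the lines moved up, towards SUM149, for KRT6A (1.62), MMP9 (1.54), ANPEP (1.54), ADM (1.49), MME (1.4), IL1A (1.38), IL1B (1.28), WNT5A (1.28), FST (1.22), TFPI2 (1.21), ITGA3 (1.18), ITGA4 (1.14), DCN (1.1) and SFRP1 (1.05). It moved down for PLAT (-1.73), SAMD9L (-1.65), IFIT2 (-1.54), CCL20 (-1.44), AREG (-1.36), NRG1 (-1.21), GREM1 (-1.18), EPCAM (-1.13), TGFBR3 (-1.13), EHF (-1.03), EREG (-1.03), HIST1H4L (-1.02), SPINT2 (-1.01) and TIMP3 (-1). PLAT and ADM changed side. EPCAM was level in controls and had 175 and 166 in SUM149 against 518 and 556 in MDA-MB-231 under siEZH2. IL1B had 9882 and 9233 in SUM149 against 1.9 and 3.5 in MDA-MB-231 under siEZH2.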

How the results depend on the processing

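The test rests on 2 libraries per group and 4 residual degrees of freedom, so small differences are the least certain, and low genes are shrunk by the variance-stabilised scale. Among 5358 values of 386 named genes under 14 alternative fits, 5274 kept their direction and side of the threshold, 58 lost the call, 19 gained it and 7 turned sign. Those 7 were RELA under quantile normalisation (-0.02), edgeR (-0.01), without SUM149 replicate 2 (-0.03) and without MDA-MB-231 replicate 1 (0), and ZEB1 under edgeR (-0.01), without SUM149 replicate 2 (-0.01) and without MDA-MB-231 replicate 2 (-0.02), and neither gene was called. With 1 library left out, RELA ranged from -0.03 to 0.05 and ZEB1 from -0.02 to 0.04. Genes called higher and lower numbered 1140 and 1341 when a size of at least 1 was also asked. On recovered counts, 1938 genes were higher and 2379 lower by at least 1 with edgeR, and 1991 and 2334 with DESeq2, because that scale does not shrink low genes. With a gap of 2 in place of 3, 37 genes were detected in SUM149 alone and 38 in MDA-MB-231 alone. Leaving out 1 library gave 4760 to 4916 genes called higher, 4786 to 4932 called lower, 1148 to 1153 higher by at least 1 and 1329 to 1369 lower by at least 1. The fit with the replicate number as a block gave 5056 higher and 5103 lower, and 1140 and 1341 by at least 1. Member counts of lists moved by over 1.5 times in 36 of 1148 comparisons, 22 of them on recovered counts.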

Other observations

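On chromosome 9, beside the undetected CDKN2A, CDKN2B and MTAP, the lines differed on opposite sides, in genes chosen after their values were seen. KLHL9, before MTAP in chromosome order, had 1988 and 2188 in SUM149 and 0 and 0 in MDA-MB-231. After CDKN2B, the next genes that averaged 100 or more in 1 line were TUSC1, CAAP1, PLAA, IFT74 and C9orf72, all low in SUM149. Between the last pair, TEK had 0 and 0 in SUM149 against 1.9 and 4.2 in MDA-MB-231, and MOB3B had 1.6 and 0 in SUM149 against 8.5 and 12.7 in MDA-MB-231. TUSC1 had 0 and 0 in SUM149 against 135 and 134 in MDA-MB-231, CAAP1 3.3 and 13.5 in SUM149 against 753 and 713 in MDA-MB-231, and PLAA, a factor in ubiquitin-dependent degradation, 34.5 and 48.5 in SUM149 against 2909 and 2814 in MDA-MB-231. IFT74, a part of the ciliary transport complex, had 11.3 and 12.8 in SUM149 against 636 and 551 in MDA-MB-231, and C9orf72 had 7 and 9.9 in SUM149 against 253 and 253 in MDA-MB-231. DNA copy number was not analysed here.

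Runs of at least 3 protein-coding genes, each averaging 100 or more in 1 line and near 0 in the other, were also found outside the histones, where genes averaging under 100 in both lines were passed over. Genes whose symbol could not be placed were passed over too. The members of a run are therefore next to each other among placed, detected genes and need not be adjacent on the chromosome. In SUM149 they were CRACR2A, PARP11 and CCND2 on chromosome 12, and 2 runs of zinc finger genes on chromosome 19. ZNF583, ZFP28 and ZNF470 were at 0 and 0 in SUM149, and had 401 and 380, 569 and 587, and 647 and 643 in MDA-MB-231. ZNF682 and ZNF90 were at 0 in SUM149, and ZNF486 of the same run had 1.6 and 2.3 in SUM149 against 536 and 477 in MDA-MB-231. In MDA-MB-231 they were HOXA3, HOXA10 and HOXA11 on chromosome 7 and HOXC13, HOXC11 and HOXC10 on chromosome 12. By chromosome, the median difference was lowest on X (-0.232), 19 (-0.222) and 10 (-0.21) and highest on 18 (0.437), 13 (0.335) and 15 (0.327), and under siEZH2 those of 19 and 18 were -0.243 and 0.477. On chromosome 19, 141 of 828 tested genes were lower in SUM149 by at least 1 and 24 higher.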
